A study of Mus musculus with 10 samples.

Results

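The cyclin-dependent kinase (CDK) inhibitor genes of the mouse were followed in crypts of the jejunum after loss of Arid3a, a DNA-binding protein with an AT-rich interaction domain. The 7 genes, Cdkn1a, Cdkn1b, Cdkn1c, Cdkn2a, Cdkn2b, Cdkn2c and Cdkn2d, were taken by symbol from the 54838 genes quantified in each library, and each symbol matched 1 gene. The libraries came from 5 WT and 5 Arid3a cKO mice, each animal giving 1 library. The cKO mice were VillinCre-ERT2+/−; Arid3a fl/fl, in which Villin drives a tamoxifen-dependent Cre in intestinal epithelial cells, so stromal and immune cells keep an intact Arid3a. Both genotypes received tamoxifen on 3 consecutive days and were taken 1 month after the first injection. The ages of the animals, and whether the WT animals carried Cre, are not given in the sources used here. The identifiers of all WT animals began with one colony code and those of all cKO animals with another, so a difference between colonies cannot be told apart from one between genotypes.

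CDK inhibitors are the brakes of the cell cycle. The CIP/KIP proteins p21 (Cdkn1a), p27 (Cdkn1b) and p57 (Cdkn1c) bind complexes of cyclins with several CDKs, whereas the INK4 proteins p16 (Cdkn2a), p15 (Cdkn2b), p18 (Cdkn2c) and p19 (Cdkn2d) bind CDK4 and CDK6 and keep them from D-type cyclins. In the small intestine, stem and transit-amplifying cells divide in the crypt and stop dividing as they move to the villus, and p21 and p27 are known to accumulate where division stops.

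Cdkn1a was 1.72-fold higher in cKO crypts. Cdkn1c was 1.52-fold higher in counts, a difference that was smaller and did not pass once transcript length was taken into account. Cdkn2b was 1.9-fold higher on average but missed the threshold, and its WT animals differed widely from each other. Cdkn1b, Cdkn2c and Cdkn2d differed little between genotypes, and Cdkn2a was at or near 0 in every library. Of the 7 genes, 6 had enough counts to be tested and 2 passed the threshold of 0.05 (edgeR quasi-likelihood p, adjusted by Benjamini-Hochberg over all genes), both higher in cKO. The same test called 28.3% of the 14719 genes tested, 15.6% higher and 12.7% lower, so 2 of 6 is near the share of all genes. The median log2 fold change (cKO minus WT) of the 6 genes was 0.34, beside −0.03 for all genes tested.

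The windows before the transcription starts of 3 members are shown because the level or the transcript mix of these genes is described in most depth. They are RefSeq sequences of GRCm38.p6, written 5′ to 3′ on the strand of the gene, up to 250 bases before the start and without bases that an annotated exon of the gene covers. RefSeq entries were found for 6 of the 7 genes, with 9 starts. The windows were searched on both strands for 5 motifs, and matches are in capitals. The GC box, the motif of Sp1-family factors, was spelled GGGCGG. The TATA box, which places the start of transcription, was spelled TATAAA. The CACCC box, read by KLF factors, was spelled CACCC. An AT-rich hexamer of the kind that ARID domain proteins prefer was spelled ATTAAA. The p53 half-site was added to the search after the Cdkn1a window had been read.
Cdkn1a, first start, chr17:29090729-29090975, plus strand: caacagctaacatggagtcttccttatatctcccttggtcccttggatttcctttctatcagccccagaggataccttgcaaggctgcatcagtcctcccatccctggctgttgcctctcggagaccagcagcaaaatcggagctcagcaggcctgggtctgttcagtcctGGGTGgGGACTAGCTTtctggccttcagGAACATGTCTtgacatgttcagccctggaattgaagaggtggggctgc
Cdkn1a, second start, chr17:29093519-29093768, plus strand: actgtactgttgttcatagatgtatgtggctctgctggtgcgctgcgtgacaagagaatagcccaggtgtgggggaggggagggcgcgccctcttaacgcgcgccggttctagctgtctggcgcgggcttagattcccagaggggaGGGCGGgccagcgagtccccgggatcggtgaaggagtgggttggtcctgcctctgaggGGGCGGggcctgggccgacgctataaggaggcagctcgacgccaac
Cdkn2b, chr4:89311040-89311282, minus strand: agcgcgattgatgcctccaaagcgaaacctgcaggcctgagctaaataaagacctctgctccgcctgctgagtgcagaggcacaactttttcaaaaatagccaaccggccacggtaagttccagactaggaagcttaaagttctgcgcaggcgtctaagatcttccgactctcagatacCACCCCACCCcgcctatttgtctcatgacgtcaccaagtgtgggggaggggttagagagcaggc
Cdkn2c, start of the shorter transcript, chr4:109665373-109665609, minus strand: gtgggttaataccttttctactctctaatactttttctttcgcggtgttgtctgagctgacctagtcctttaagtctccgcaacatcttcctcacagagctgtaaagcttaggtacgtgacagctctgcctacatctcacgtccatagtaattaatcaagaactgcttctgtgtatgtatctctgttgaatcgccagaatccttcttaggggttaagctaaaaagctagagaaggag
The first Cdkn1a window held 2 matches to the p53 half-site, which are its longer capital runs, and 1 CACCC box read on the other strand. A p53 half-site was found in 7.13% of 32851 promoters of the full 250 bases. The second Cdkn1a window, whose start lies 2790 bases downstream of the first annotated protein-coding one, held 2 GC boxes, a motif found in 32.7% of promoters. The Cdkn2b window held 2 adjoining CACCC boxes, and at least 1 CACCC box was found in 52% of promoters. The Cdkn2c window, which lies within the first intron of the longer transcript, held none of the 5 motifs. TATAAA was found in 12.4% of promoters and ATTAAA in 12.7%, and neither was found in the windows shown. Of the windows not shown, that of Cdkn1b held 1 ATTAAA, read on the other strand. A match describes the letters only and is not evidence of binding.

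Library totals ranged from 27050455 to 31053622 expected counts, and a level of 1 CPM (counts relative to the TMM-scaled library size) stood for 26.4 to 29.9 counts. Arid3a itself had 55 to 81 counts in WT and 9 to 31 in cKO libraries. Its level was 2.42 ± 0.396 CPM in WT and 0.673 ± 0.35 in cKO (mean ± SD, n = 5), a log2 fold change of −1.84 (SE 0.32, edgeR quasi-likelihood adjusted p = 0.00204), and the genotypes did not overlap. The crypts were released after the villi had been scraped off, and both genotypes still held enterocyte transcripts: 11 enterocyte markers, among them Alpi, Sis and Apoa4, summed to 1795 to 8662 CPM in WT and 10063 to 18879 in cKO. All 11 markers passed the test as higher in cKO, beside 15.6% of all genes tested. The count of markers was 7 without WT replicate 1 or cKO replicate 2. It was 6 without WT replicate 3, WT replicate 5 or cKO replicate 4, and 4 without cKO replicate 5. In bulk RNA, a change in the number of cells of a type and a change of RNA per cell cannot be told apart.

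Per unit of length, Cdkn1a and Cdkn1b were the most abundant CDK inhibitors of WT crypts. Their levels were 28.7 ± 6.73 and 26.3 ± 3.08 TPM (abundance corrected for transcript length and scaled to a common total, mean ± SD, n = 5), and these overlapped, with Cdkn1a above Cdkn1b in 2 of 5 animals. Cdkn2c followed at 17.5 ± 1.45 TPM, without overlap with Cdkn1b, and then Cdkn2b at 13.8 ± 6.11 TPM, which overlapped Cdkn2c. Cdkn2d, at 4.66 ± 0.694 TPM, and Cdkn1c, at 3.08 ± 0.563 TPM, were lower and did not overlap with their neighbours in this order. In WT crypts the INK4 gene with the highest mean transcript level was thus Cdkn2c, which was above Cdkn2b in 4 of 5 animals.

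In cKO crypts Cdkn1a, at 46.5 ± 8.17 TPM, stood above Cdkn1b, at 26.1 ± 1.6 TPM, in all 5 animals and without overlap. Cdkn2b, at 24.8 ± 6.43 TPM, overlapped Cdkn1b, and it was above Cdkn2c, at 16.5 ± 2.51 TPM, in all 5 animals although the ranges overlapped. Cdkn2d and Cdkn1c, at 4.55 ± 0.522 and 3.91 ± 1.12 TPM, overlapped. The order of Cdkn2b and Cdkn2c was therefore opposite in the means of the 2 genotypes. Summed over the 7 genes, the level was 94.1 ± 14.6 TPM in WT, from 79.4 to 118, and 122 ± 5.84 TPM in cKO, from 116 to 128. Cdkn1a made up 30.2 ± 2.7% of that sum in WT and 37.9 ± 5.3% in cKO, and Cdkn2b made up 14.3 ± 4.3% and 20.2 ± 4.9%. The share of Cdkn1b was 28.4 ± 4.9% in WT and 21.4 ± 2.0% in cKO, and that of Cdkn2c was 18.8 ± 1.9% and 13.5 ± 2.6%. These shares are bound to sum to the whole and were not tested.

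**Figure D1:**
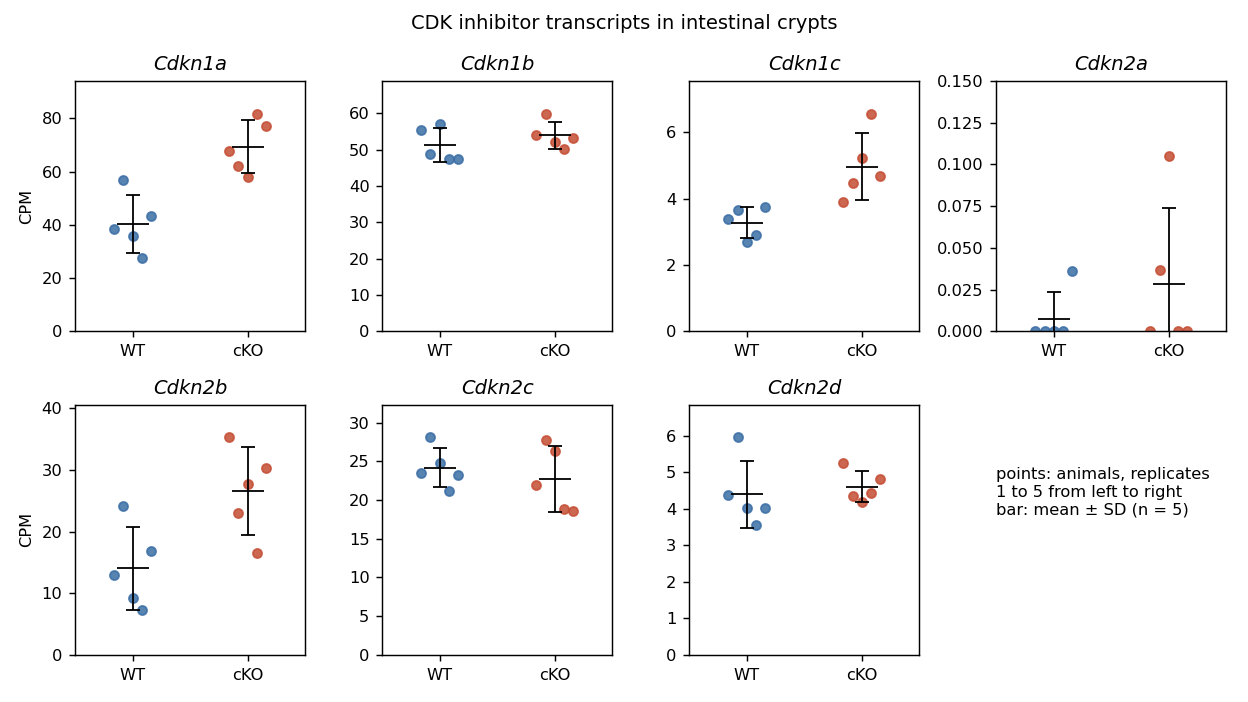
CPM of each CDK inhibitor gene (y axis) in WT and cKO crypts (x axis), with 1 point per animal and a bar for the mean ± SD (n = 5). Cdkn1a and Cdkn1c do not overlap between genotypes, Cdkn2b overlaps through WT replicates 2 and 5 and cKO replicates 2 and 4, and Cdkn2a lies at 0 or at 1 to 3 counts.

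Cdkn1a encodes p21, which binds cyclin-CDK complexes and the replication clamp PCNA and is a known target of p53. The gene lies at chr17:29090976-29100727 of GRCm38 on the plus strand. Its level in WT replicates 1 to 5 was 38.5, 56.8, 35.7, 27.5 and 43.3 CPM, and in cKO replicates 1 to 5 it was 67.6, 62.3, 58.1, 81.8 and 77.2 CPM. Every cKO animal was above every WT animal, with a narrow gap between cKO replicate 3 and WT replicate 2. The means were 40.4 ± 10.8 CPM in WT and 69.4 ± 9.94 CPM in cKO (SD, n = 5), from 821 to 1651 and 1663 to 2408 counts. The log2 fold change was 0.78 (SE 0.17, 95% interval 0.41 to 1.16, adjusted p = 0.00741 in edgeR's quasi-likelihood test), or 1.72-fold with an interval of 1.33 to 2.23. The CPM values of Cdkn1a and Cdkn1c, 2 of the 6 genes tested, did not overlap, and among all genes tested 19.6% had CPM values that did not overlap between genotypes. On the per-length scale the means were 28.7 and 46.5 TPM. The 3 genes whose deviations from the genotype means were most like those of Cdkn1a over the 10 libraries were Mocs2 (Pearson r = 0.98), Rnd2 (0.96) and Clec2e (0.96), of 10463 genes searched.

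The enterocyte markers were set beside the Cdkn1a level of each animal. In WT replicates 1 to 5 they summed to 5661, 8662, 2961, 1795 and 4252 CPM, and in cKO replicates 1 to 5 to 14628, 13682, 10063, 17998 and 18879 CPM. WT replicate 2 had the highest sum and the highest Cdkn1a level of its group, WT replicate 4 the lowest of both, and cKO replicate 3 the lowest of both among cKO animals. WT replicate 3 and cKO replicates 1 and 2 also held the same place in both orders. The remaining animals changed places with a neighbour. WT replicate 1 had a higher sum than WT replicate 5 but less Cdkn1a. Among cKO animals, replicate 5 had the highest sum and replicate 4 the highest Cdkn1a level. The part of the enterocyte transcripts in the Cdkn1a difference was not tested. Immune markers, 12 genes with Ptprc and Cd3e among them, overlapped between genotypes, at 133 to 357 CPM in WT and 129 to 370 CPM in cKO, and 1 of them, the plasma cell gene Jchain, passed the test as lower. The 13 stromal, muscle and endothelial markers also overlapped, at 25.7 to 107 CPM and 20.0 to 159 CPM, and cKO replicate 4 held the highest sum. Of the 11 that could be tested, 2 passed as lower, beside 12.7% of all genes. They were the smooth muscle gene Acta2 (log2 −1.59, edgeR adjusted p = 0.0455) and the endothelial gene Pecam1 (−1.19, 0.00984). The count was 5 without cKO replicate 4. AC167363.2, annotated on the strand opposite Cdkn1a, had 1.11 to 7.02 counts per library.

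**Figure D2:**
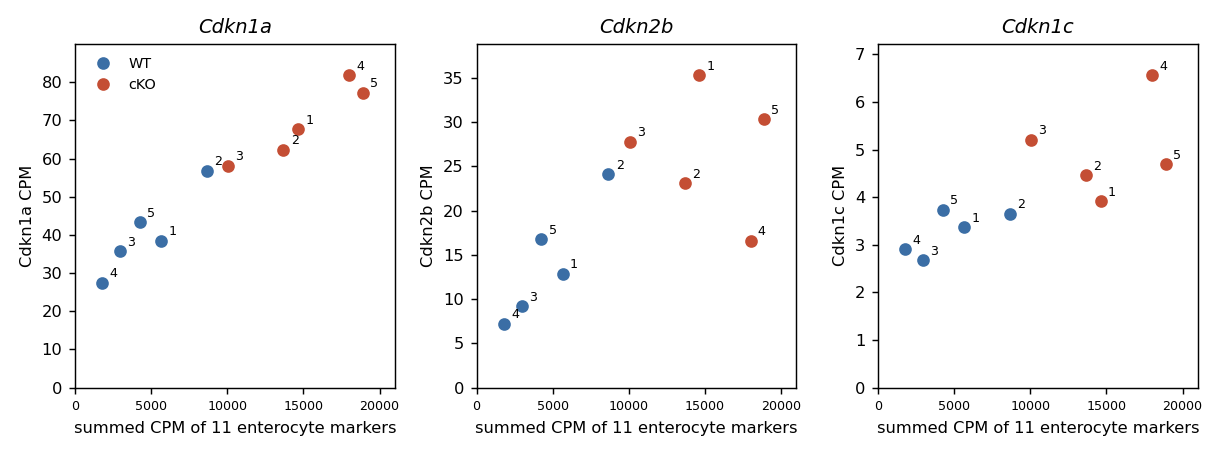
CPM of Cdkn1a, Cdkn2b and Cdkn1c (y axes) against the summed CPM of 11 enterocyte markers (x axis), with 1 numbered point per animal and colours for genotype. WT replicate 2, at 8662 CPM of markers, lies nearest to the cKO animals, and cKO replicate 4, at 17998 CPM, has the lowest Cdkn2b level of its group, 16.6 CPM.

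Cdkn1b encodes p27, which holds cyclin E-CDK2 inactive and is controlled largely through its degradation. The gene lies at chr6:134920401-134925513 on the plus strand. WT replicates 1 to 5 had 55.4, 48.9, 57.1, 47.5 and 47.3 CPM, and cKO replicates 1 to 5 had 54.0, 59.9, 52.2, 50.3 and 53.2 CPM. The groups overlapped over most of their range, and the spread within them was the smallest of the 7 genes, with a coefficient of variation of 9.0% in WT and 6.7% in cKO. The log2 fold change was 0.07 (SE 0.08, 95% interval −0.09 to 0.24, edgeR adjusted p = 0.499), an interval from 0.938-fold to 1.18-fold, and the value turned to −0.06 with scaling by library size alone and to −0.004 on the TPM scale. The ratio of Cdkn1a to Cdkn1b in TPM was 0.989, 1.51, 0.879, 0.823 and 1.31 in WT replicates 1 to 5 and 1.79, 1.4, 1.51, 2.21 and 2.03 in cKO replicates 1 to 5. The genes most like Cdkn1b around the genotype means were Tmem106b (r = 0.96), Uevld (0.95) and Tbl1xr1 (0.93), over 10 libraries.

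Cdkn1c encodes p57, an imprinted CIP/KIP gene at chr7:143458339-143461050 on the minus strand. It was the least abundant member of its family, with 79 to 106 counts in WT and 116 to 193 in cKO libraries. WT replicates 1 to 5 had 3.37, 3.65, 2.68, 2.91 and 3.74 CPM, and cKO replicates 1 to 5 had 3.91, 4.46, 5.21, 6.56 and 4.69 CPM. All cKO animals were above all WT animals, with 3.91 CPM the lowest cKO and 3.74 CPM the highest WT value. The log2 fold change was 0.60 (SE 0.16, 95% interval 0.24 to 0.96, edgeR adjusted p = 0.0177), or 1.52-fold with an interval of 1.18 to 1.94. Corrected for transcript length, the difference was smaller and no longer passed the test. With effective length as an offset the log2 fold change was 0.44 (edgeR adjusted p = 0.144). In TPM the means were 3.08 ± 0.563 and 3.91 ± 1.12 with overlap (2.25 to 3.79 and 2.65 to 5.6). TPM carries no TMM scaling, and in counts scaled by library size alone the log2 fold change was 0.48 (edgeR adjusted p = 0.04). The mean transcript length of Cdkn1c was 1484 ± 168 bases in WT and 1661 ± 140 in cKO, a difference of 178 bases (exact permutation p = 0.135). Gm44732, an antisense gene over Cdkn1c, had 0 to 8.15 counts per library, and the strand setting of the quantification is not given in the sources used here. Tm4sf4 (r = 0.87), Fiz1 (0.84) and Gm6563 (0.84) were most like Cdkn1c over the 10 libraries. The part of enterocyte transcripts in the Cdkn1c difference was not tested.

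Cdkn2b encodes p15, the INK4 inhibitor that TGF-β is known to induce. The gene has 1 annotated transcript, at chr4:89306299-89311039 on the minus strand. WT replicates 1 to 5 had 12.9, 24.1, 9.19, 7.23 and 16.8 CPM, and cKO replicates 1 to 5 had 35.3, 23.1, 27.8, 16.6 and 30.3 CPM. The cKO replicates 1, 3 and 5 were above every WT animal, while cKO replicates 2 and 4 lay below WT replicate 2 and cKO replicate 4 also just below WT replicate 5. The coefficient of variation was 47.8% in WT, the widest of the members tested, and 26.7% in cKO. The means of 14.1 ± 6.71 and 26.6 ± 7.11 CPM gave a log2 fold change of 0.92 (SE 0.33, 95% interval 0.19 to 1.65), which did not pass after adjustment (edgeR adjusted p = 0.0601). The call rested on the fit and on single animals: the adjusted p was 0.00672 with DESeq2, a tool that called 33.4% of all genes, 0.0104 without WT replicate 2 and 0.0456 without cKO replicate 4 (edgeR). With the replicate number as a block, which called 20.7% of all genes, Cdkn2b passed and Cdkn1c did not. WT replicate 2, with the most enterocyte transcripts of its group, also had the most Cdkn2b, but among the cKO animals replicate 4 had the least Cdkn2b with 17998 CPM of these markers. The part of enterocyte transcripts in the Cdkn2b values was not tested. Arpc5 (r = 0.99), Mgst3 (0.98) and Sdhb (0.97) were most like Cdkn2b around the genotype means.

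Cdkn2b was also set beside Cdkn2c, the other INK4 gene of similar level. The TPM ratio of Cdkn2b to Cdkn2c was 0.77, 1.18, 0.526, 0.454 and 0.98 in WT replicates 1 to 5 and 2.11, 1.05, 1.42, 1.11 and 2.03 in cKO replicates 1 to 5. It was above 1 in WT replicate 2 alone of the WT animals and in every cKO animal.

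Cdkn2a gives rise to p16 and, from an upstream first exon read in another frame, to p19ARF. It lies at chr4:89274471-89294653 on the minus strand, next to Cdkn2b. WT replicate 5 had 1 count and the other WT libraries 0, while cKO replicate 2 had 1 count, cKO replicate 3 had 3 and the others 0. The gene did not pass the filter on low counts and was not tested, and no fold change is given because both genotypes were at or under a floor of 3 counts per library, at most 0.113 CPM. In the 3 libraries with a count, the quantification assigned it to the transcript of 895 bases, which begins at the upstream first exon at 89294653. At this depth Cdkn2a was not distinguishable from 0 in either genotype.

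Cdkn2c encodes p18 and lies at chr4:109660876-109667189 on the minus strand. WT replicates 1 to 5 had 23.5, 28.1, 24.8, 21.2 and 23.3 CPM, and cKO replicates 1 to 5 had 22.0, 27.8, 26.3, 18.8 and 18.6 CPM. The groups overlapped, although cKO replicates 4 and 5 were below every WT animal. The log2 fold change was −0.09 (SE 0.12, 95% interval −0.36 to 0.18, edgeR adjusted p = 0.608), an interval from 0.781-fold to 1.13-fold, and it was 0.02 with effective length as an offset. Kif2c (r = 0.97), Aurka (0.96) and Cenpp (0.95), genes of mitosis and the centromere, were most like Cdkn2c over the 10 libraries.

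The mix of Cdkn2c transcripts was also measured, through the mean transcript length that RSEM gives each gene in each library. Cdkn2c has 2 annotated transcripts, of 2471 bases from the upstream start and of 1106 bases from the start shown above, and a mean length fixes their shares. The mean length was 1878 ± 46.7 bases in WT and 1757 ± 56.2 in cKO, a difference of −121 bases (two-sided exact permutation p = 0.0159). After adjustment over the 5 members with several transcript lengths the p was 0.0794 (exact permutation test, Benjamini-Hochberg), so no member passed. Across all 11018 genes examined, 13.7% had an unadjusted length p under 0.05. The longer transcript made up 58.8, 56.6, 60.7, 52.0 and 54.6% of Cdkn2c in WT replicates 1 to 5 and 50.8, 45.3, 53.3, 44.6 and 44.3% in cKO replicates 1 to 5. Only cKO replicate 3 lay within the WT range, so leaving it out separates the groups by construction and gives the smallest p the test allows (a difference of −141 bases, exact permutation adjusted p = 0.0397), which adds no support. Leaving out any other animal gave −107 to −137 bases with adjusted p from 0.0794 to 0.159 (exact permutation test). The −137 bases, with an adjusted p of 0.0794 in that test, came without WT replicate 4. That animal alone of the WT lay within the cKO range, so its removal also separates the groups by construction. In TPM the longer transcript was at 9.91 ± 1.14 in WT and 7.87 ± 1.52 in cKO, and the shorter at 7.6 ± 0.724 and 8.59 ± 1.34. The mean lengths of Cdkn1a (1902 and 1906 bases), Cdkn1b (2619 and 2587 bases) and Cdkn2d (1305 and 1324 bases) differed by less than the spread between animals. For Cdkn1a these lengths are close to the 1913 bases of the transcript from the second start.

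**Figure D3:**
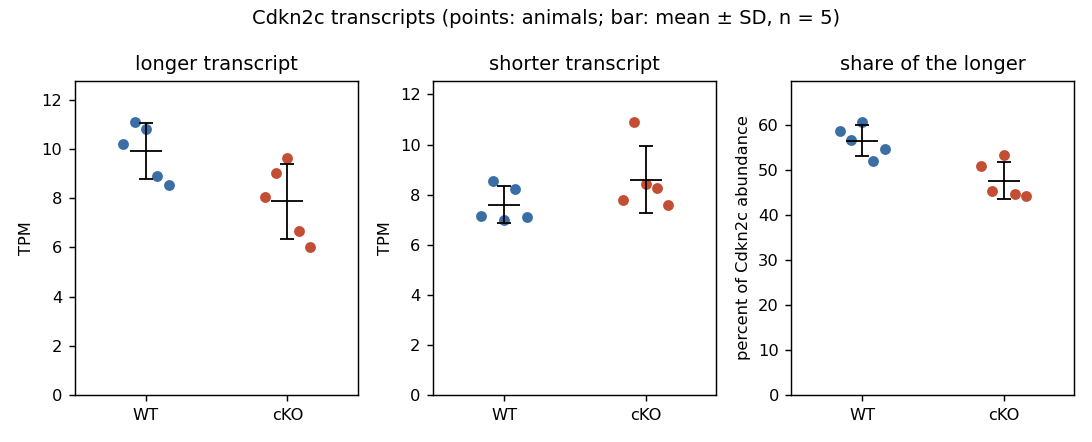
TPM of the longer and shorter Cdkn2c transcripts and the percent of Cdkn2c abundance in the longer one (y axes) by genotype (x axis), with 1 point per animal and a bar for the mean ± SD (n = 5). The longer transcript holds 52.0 to 60.7% in WT and 44.3 to 53.3% in cKO.

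Cdkn2d encodes p19, the fourth INK4 protein, and lies at chr9:21288410-21291407 on the minus strand. WT replicates 1 to 5 had 4.38, 5.95, 4.03, 3.55 and 4.03 CPM, and cKO replicates 1 to 5 had 5.25, 4.35, 4.19, 4.42 and 4.8 CPM. The cKO values all lay inside the WT range. The log2 fold change was 0.07 (SE 0.15, 95% interval −0.26 to 0.40, edgeR adjusted p = 0.764), and it was −0.06 with scaling by library size alone and −0.03 on the TPM scale. Pklr (r = 0.98), Dlst (0.98) and Tkfc (0.97) were most like Cdkn2d over the 10 libraries.

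**Figure D4:**
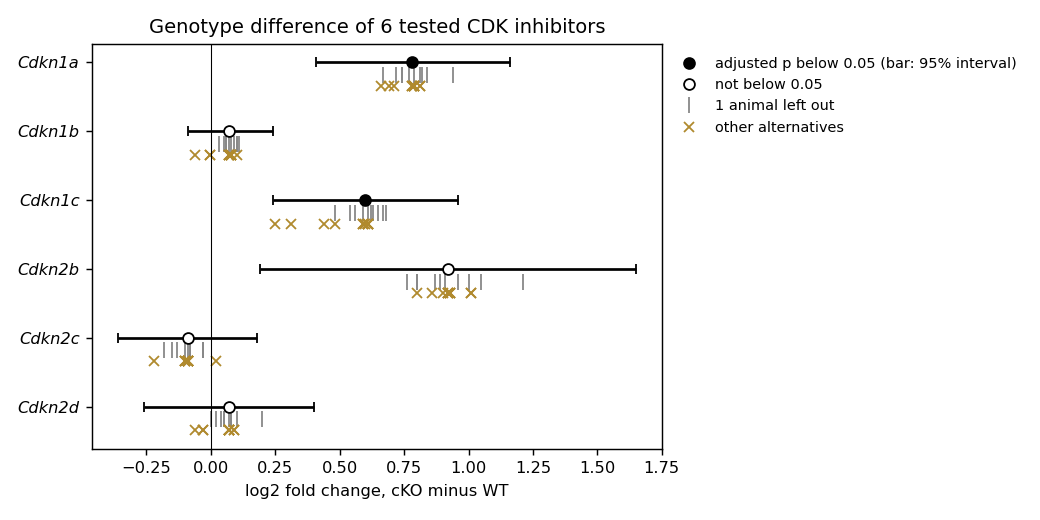
Log2 fold change of the 6 tested genes (x axis, cKO minus WT), with the 95% interval as a bar, filled points for an adjusted p below 0.05, ticks for fits with 1 animal left out and crosses for the other alternatives. Every alternative of Cdkn1a, Cdkn1c and Cdkn2b lies above 0, while those of Cdkn1b, Cdkn2c and Cdkn2d lie on both sides of it.

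Among the genes whose products the inhibitors act on, 7 of 13 CDKs and cyclins fell in cKO crypts and 0 rose in edgeR's test. Their median log2 fold change was −0.37, and the same test called 12.7% of all genes lower and 15.6% higher. Ccne1, the cyclin E1 that p21 and p27 hold back, fell from 23.5 ± 3.34 to 13.9 ± 2.57 CPM (log2 −0.76, edgeR adjusted p = 0.00241). Cdk2, its kinase, fell from 59.2 ± 3.31 to 42.1 ± 2.41 CPM (−0.49, 0.000736), and Ccnd1, the cyclin D1 partner of the INK4 targets, from 165 ± 23.5 to 119 ± 11.6 CPM (−0.47, 0.006). Ccne2 fell by 0.52 on the log2 scale.
Downstream of the CDKs, 2 of 11 pocket protein and E2F genes rose and 4 fell, beside 28.3% of all genes called. The count was 3 in all without cKO replicate 5. The pocket proteins Rb1 and Rbl2, which restrain E2F, rose by a log2 of 0.62 and 0.37, and E2f1 and E2f7 fell by 0.59 and 0.42.

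Of 16 genes for the degradation of CIP/KIP proteins, 1 rose and 3 fell, near the share of 28.3% called among all genes, and the count was 2 in all without WT replicate 3, WT replicate 4 or cKO replicate 1. Skp2, the ubiquitin ligase subunit that targets p27, fell from 29.2 ± 4.27 to 21.2 ± 1.04 CPM (log2 −0.46, edgeR adjusted p = 0.0053). Pcna and Dtl, which act together on p21, fell by 0.38 and 0.37 on the log2 scale, and Uhmk1 rose by 0.18.
Of 28 transcriptional regulators of CDK inhibitor genes, 27 were tested, and 3 rose and 5 fell, near the share of 28.3% called among all genes. Klf6 and Klf4, zinc-finger factors known to activate Cdkn1a, rose from 35.0 ± 8.19 to 69.9 ± 4.51 CPM (log2 1.00, edgeR adjusted p = 0.000833) and from 39.3 ± 3.86 to 63.9 ± 11.3 CPM (0.70, 0.00165). Foxo3 rose by 0.45 and Tgfbr2, the TGF-β receptor upstream of p15, fell by 0.47. Trp53, the gene of p53, fell from 151 ± 13.4 to 112 ± 4.43 CPM (log2 −0.44, edgeR adjusted p = 0.00149). Myc, Cbx7 and Men1 fell by 0.33, 0.32 and 0.27.

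Other targets of p53 moved in both directions. Of 20 such genes, 7 rose and 2 fell, with a median log2 fold change of 0.12. Of all genes tested, 28.3% were called, 15.6% higher and 12.7% lower. Fas, a death receptor, rose from 2.95 ± 1.45 to 6.99 ± 0.952 CPM (log2 1.25, edgeR adjusted p = 0.0103), Sesn1 rose by 0.81 and Pmaip1 by 0.80, whereas Phlda3 fell by 0.84.
Of 12 other genes that hold back CDKs or division, 4 rose and 2 fell, beside 28.3% of all genes called. Gadd45a and Btg2 stand in both this list and the p53 list. Btg1, an antiproliferative factor, rose from 85.2 ± 10.6 to 211 ± 19.8 CPM (log2 1.31, edgeR adjusted p = 9.74e-05) and Tob1 and Gadd45a rose by 0.81 and 0.68, while Pkmyt1, a kinase that inhibits CDK1, fell by 0.73.
All 10 S-phase genes fell, beside 12.7% of all genes called lower, and Pcna is also on the proteolysis list. Their sums were 1603 to 2085 CPM in WT and 1198 to 1380 CPM in cKO. Of 9 G2/M genes 2 fell and 7 did not pass, with overlapping sums of 1055 to 1296 CPM in WT and 880 to 1235 CPM in cKO, and the count was 1 to 4 when 1 animal was left out. Crypt base stem cell markers fell for 4 of 6 genes, a count of 1 without WT replicate 3, WT replicate 4, cKO replicate 1, cKO replicate 3 or cKO replicate 5. The part of these changes in the CDK inhibitor values was not tested.

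**Figure D5:**
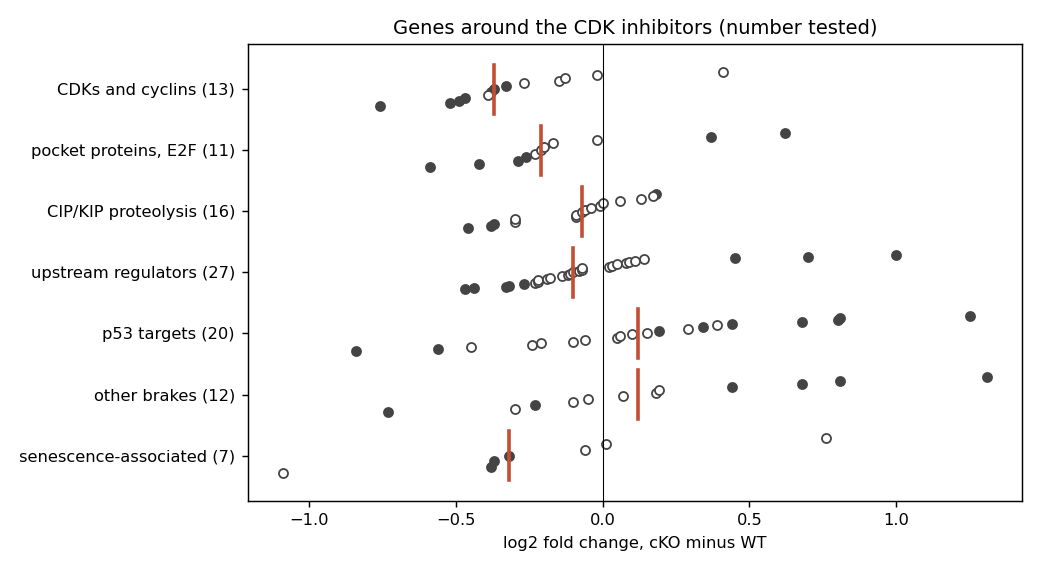
Log2 fold change (x axis, cKO minus WT) of each tested gene of 7 lists around the CDK inhibitors (rows), with filled points for an adjusted p below 0.05 and a red bar for the median. The CDK and cyclin list has its median at −0.37 and the p53 target list at 0.12.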

How the data were processed

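Per the labels and the study's methods, polyA libraries (KAPA mRNA HyperPrep) were made from jejunal crypts and quantified by the authors with STAR and RSEM, run through nf-core/rnaseq, against the Ensembl annotation of GRCm38. The strand setting is not given in the sources used here. The authors deposited, for each gene and library, the expected count, TPM, FPKM, and the abundance-weighted transcript length and effective length, with no normalization of counts between libraries. FPKM was not used. Symbols and positions came from the GENCODE annotation of the same build, and 115 genes without a symbol held 0.0193% of the counts.

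After rounding, expected counts entered edgeR 4.0.16 under R 4.3.3 (filterByExpr with minimum count 10 and total 15, TMM, robust glmQLFit and glmQLFTest, Benjamini-Hochberg over 14719 genes, threshold 0.05). CPM refers to TMM-scaled library sizes and n is 5 animals per genotype. TPM was the authors' value. Transcript length was compared by a two-sided exact permutation test over 252 assignments, whose smallest p is 0.00794, for genes with several annotated lengths and at least 10 counts in every library. Likeness was Pearson's r of log2 CPM deviations from the genotype mean, over genes of at least 5 CPM, as a description with no p.

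The alternatives in edgeR were scaling by library size alone or by relative log expression, unrounded expected counts, other filters, an effective length offset and a replicate block. Leaving out each animal was a further alternative. The other tools were DESeq2 1.42.0 and limma 3.58.1 (voom, and log2 of TPM with a pseudocount of 0.1 or 1). On simulated counts for 14509 genes with 5 against 5 libraries, 69 of 97 genes changed by 1 on the log2 scale and 91 of 98 changed by 2 were called, beside 6 unchanged genes. No 2 libraries of a genotype agreed within sampling noise (lowest chi-square per degree of freedom 14.4). The members and gene lists were chosen with earlier results of these data known. The text names all 7 members, Arid3a and the 3 genes most like each member. It names at most 4 genes per pathway list, those with the largest change past the threshold, but all that passed among the transcriptional regulators.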

Additional observations from a re-analysis of the deposited data

Results flagged for a closer look

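Of 22 groups of 5 values examined for a sample far from the rest, 1 stood out, and chance alone marks about 1 in 20. The mean transcript length of Cdkn1b in WT replicate 2 was 2435 bases, while the other 4 WT animals had 2639 to 2683 bases, a gap of 0.824 of the whole range. The Cdkn1b level of the same animal, 48.9 CPM, lay inside the WT range.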

How the results depend on the processing

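Cdkn1a kept its direction and passed the threshold in all 21 alternatives (log2 fold change 0.66 to 0.94, adjusted p 8.82e-05 to 0.028). Leaving out 1 animal at a time gave 0.67 to 0.94 for Cdkn1a, 0.03 to 0.11 for Cdkn1b, 0.48 to 0.68 for Cdkn1c, 0.76 to 1.21 for Cdkn2b, −0.18 to −0.03 for Cdkn2c and 0.00093 to 0.20 for Cdkn2d, with 2 to 3 members called, 0 to 1 with a changed transcript length and 3007 to 4684 genes called. Cdkn1c missed the threshold with an effective length offset (0.44, leaving 1 member called), on log2(TPM + 0.1) (0.31), on log2(TPM + 1) (0.25) and with a replicate block (0.59, adjusted p = 0.0563). Cdkn2b passed with DESeq2 (0.93), limma-voom (1.01), log2(TPM + 0.1) (0.90), log2(TPM + 1) (0.86) and the replicate block (1.01, adjusted p = 0.0346), and its adjusted p over all alternatives ran from 0.00672 to 0.161. Values that changed sign were within 0.06 of 0: Cdkn1b with library size only (−0.06), log2(TPM + 0.1) (−0.004) and log2(TPM + 1) (−0.0041), Cdkn2d in the same 3 fits (−0.06, −0.03 and −0.03) and Cdkn2c with the length offset (0.02). The cause was not tested. With library size alone the median of all genes was −0.16 in place of −0.03, and 1544 genes were called higher and 4030 lower. The replicate numbers did not pair the animals (correlations −0.212 to 0.0947), and the block left 3048 genes called. Of 357 list counts under the alternatives, 284 stayed within 1.5 times the reported count. Depth limits Cdkn2a, which had at most 3 counts in a library.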

Other observations

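Of 11 senescence-associated genes, 7 were tested, and 3 fell and 0 rose in edgeR's quasi-likelihood test. The same test called 12.7% of all genes lower. Lmnb1, the lamin B1 whose loss accompanies senescence, fell from 165 ± 8.87 to 132 ± 12.6 CPM (log2 −0.32, edgeR adjusted p = 0.00773, n = 5). Hmga1 and Hmga2, chromatin proteins found in senescent and in proliferating cells, fell by 0.37 and 0.38. Cdkn2a, the inhibitor most used as a senescence marker, had 1 count over the WT libraries and 4 over the cKO libraries.

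Among secretory cell markers, 5 of 17 tested enteroendocrine genes rose, with 2 to 8 called when 1 animal was left out. Of all genes, 28.3% were called, 15.6% higher and 12.7% lower. Counted in either direction, 5 of 17 called is near the share of all genes, but all 5 were higher. Of the 17 genes, 15 had a positive log2 fold change, and the median was 0.42. The enteroendocrine sum was 489 to 594 CPM in WT and 629 to 883 CPM in cKO. Of 7 tested tuft cell genes 5 rose, with 2 to 5 called when 1 animal was left out. Of 6 Paneth cell genes 5 fell, and their sum was 16108 to 24521 CPM in WT and 10548 to 14341 CPM in cKO. Of 7 goblet cell genes 0 passed edgeR's test, 3 had an unadjusted p under 0.05 and DESeq2 called 1, limma-voom 0 and limma on log2 TPM 2. The median log2 fold change of the goblet genes was 0.10, and their sums overlapped.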
